A study of Mus musculus with 30 samples.

Results

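Hyperplasia is an overgrowth of the lining epithelium that precedes dysplasia in chemically induced oral cancer. Its transcriptome was compared with that of normal tissue in a mouse series that follows oral squamous cell carcinoma through 5 pathological stages. RNA was sequenced from 30 samples, and the comparison takes the 8 samples staged as hyperplasia and the 3 staged as normal, which is 11 of the 30. All mice were male C57BL/6J mice, with no genetic modification named. One protocol is attached to every sample, the normal ones included: 4-nitroquinoline 1-oxide (4NQO), a quinoline that damages DNA, at 100 ug/mL in the drinking water for 10 weeks from 6 weeks of age. The labels therefore do not say whether the normal mice drank the carcinogen. They also give the same carcinoma tissue for all samples, do not say at which age tissue was taken, and do not say whether each sample is a separate animal, so p-values measure only the spread among these libraries, which may be technical. Hyperplasia samples carry the code letter A and normal samples the letter D, so a batch that follows the letter cannot be told apart from the stage.

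4NQO is activated in cells to a form that binds guanine, and the resulting adducts stall replication forks. Cells meet such damage with the p53 programme of arrest and death genes, with repair and bypass polymerases, and with the NRF2 programme, in which oxidants and electrophiles release the transcription factor Nrf2 to induce glutathione and detoxifying enzymes. Interferons, released when cells sense foreign or misplaced nucleic acid, switch on antiviral genes and the display of peptides on major histocompatibility complex (MHC) molecules to T cells.

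Levels are given as CPM, a gene's read count after scaling by the size of its library times a normalisation factor (TMM). That factor was 0.9265, 0.8916 and 0.9419 in normal replicates 1, 2 and 3, and 0.9721 to 1.044 in hyperplasia. Levels of different genes are not compared because CPM does not correct for gene length. Values in hyperplasia are the lowest, the median and the highest of the 8 samples, and values in normal tissue are those of replicates 1, 2 and 3. Log2 fold changes are hyperplasia minus normal, with 1 standard error. A gene is said to have risen or fallen where its adjusted p was under 0.05 in edgeR's quasi-likelihood test, with Benjamini-Hochberg adjustment over all 17638 genes tested. Library totals were 17725604 to 26625949 counts in hyperplasia and 19926988 to 24163924 in normal tissue.

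Both groups held markers of squamous epithelium and of skeletal muscle. The summed level of 6 squamous markers (Krt5, Krt14, Krt13, Krt4, Trp63 and Dsg3) was 35740 to 52690 CPM in hyperplasia and 36280 to 54600 CPM in normal tissue, so the groups overlapped fully. The 4 skeletal muscle markers summed to 20220 to 35440 CPM in hyperplasia against 30940 to 42150 CPM in normal tissue. Salivary markers ran from 1.497 to 2828 CPM in hyperplasia and from 23.6 to 1210 CPM in normal tissue, and erythrocyte markers from 85.8 to 208 CPM in hyperplasia against 242 to 703 CPM in normal tissue. In bulk tissue a smaller share of a cell type and less RNA per cell cannot be told apart.

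Hyperplasia differed from normal tissue at 2519 genes, of which 1449 rose (8.22% of genes tested) and 1070 fell (6.07%), together 14.3% of genes tested. Of these, 554 rose and 208 fell by at least 2-fold, and 168 rose and 72 fell by at least 4-fold. The groups did not overlap for 9.13% of genes with all 8 lesions higher and for 5.52% with all 8 lower. The median log2 fold change over all genes was 0.0125. Which direction held more genes turned with the scaling: DESeq2 called 1462 higher and 1581 lower, and edgeR with its size factors 1305 higher and 1413 lower.

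**Figure D1:**
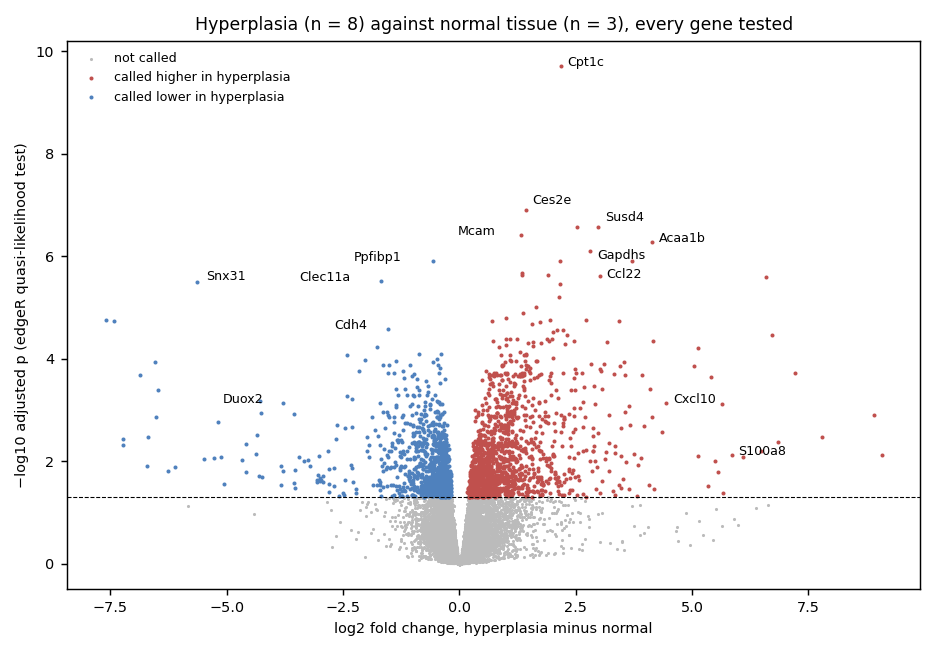
Log2 fold change, hyperplasia minus normal (horizontal axis), against −log10 of the adjusted p from edgeR (vertical axis); each point is 1 of 17638 genes, red where called higher in hyperplasia, blue where called lower, and the dashed line marks an adjusted p of 0.05. Cpt1c has the smallest adjusted p, 1.89e-10, and 1449 genes are called higher and 1070 lower.

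The counts depended on single normal libraries. Without normal 2 the test called 443 genes higher and 453 lower, and without normal 3 it called 857 higher and 966 lower. Leaving out normal 1 gave 1202 higher and 1226 lower, and among hyperplasia libraries the most calls came without hyperplasia 4, with 1376 higher and 1502 lower. A fit with a muscle score as a covariate, the mean log2 CPM of contractile genes in each sample, called 1016 higher and 559 lower. There were 385 risen and 237 fallen genes that were called whichever of the 11 libraries was left out. A gene given below with its level kept its call in each of these 11 fits unless another value is stated beside it.

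**Figure D2:**
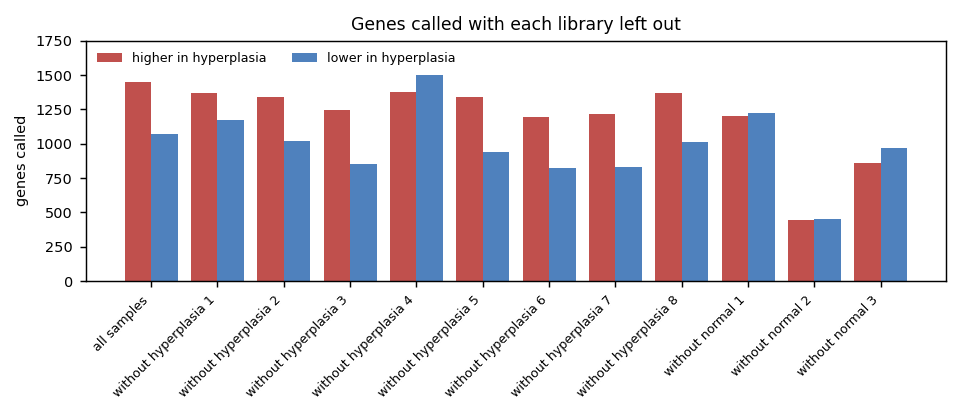
Number of genes called higher (red) and lower (blue) in hyperplasia (vertical axis) with all samples and with each of the 11 libraries left out (horizontal axis). The pair of bars without normal 2 is the shortest, at 443 and 453 genes.

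The genes with the smallest adjusted p came from no single pathway. Cpt1c, the neuron-enriched member of the carnitine palmitoyltransferase family, measured 18.5, 22.05 and 26.2 CPM in hyperplasia against 4.99, 4.45 and 5.14 CPM in normal tissue. Every hyperplasia sample was thus above every normal one (log2 fold change 2.18 ± 0.15, adjusted p 1.89e-10). Susd4, a sushi-domain protein that restrains complement, had 4.02, 4.89 and 5.79 CPM in hyperplasia and 0.434, 0.676 and 0.747 CPM in normal tissue (2.97 ± 0.30, adjusted p 2.62e-07). The peroxisomal thiolase gene Acaa1b stood at 2.91, 4.39 and 5.42 CPM in hyperplasia and 0.434, 0.0563 and 0.2198 CPM in normal tissue (4.13 ± 0.43, adjusted p 5.33e-07). For both genes the groups were fully apart. Mcam, the adhesion molecule CD146, was at 55.6, 61.4 and 68.4 CPM in hyperplasia and 21.5, 28.5 and 24.6 CPM in normal tissue (1.32 ± 0.13, adjusted p 3.8e-07). Groups were also separate for Gapdhs, the sperm form of a glycolytic enzyme (2.81 ± 0.30, adjusted p 7.9e-07), the synaptic adhesion gene Igsf9b (2.09 ± 0.29, adjusted p 2.75e-05) and the carboxylesterase gene Ces2e (1.42 ± 0.13, adjusted p 1.27e-07).

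Among the genes that fell, Clec11a, a secreted lectin-domain growth factor, had 2.81, 4.04 and 4.72 CPM in hyperplasia against 11.9, 14.02 and 12.7 CPM in normal tissue (-1.69 ± 0.20, adjusted p 3.05e-06). Cdh4, which encodes R-cadherin, had 0.898, 1.23 and 1.74 CPM in hyperplasia and 3.58, 4.34 and 3.47 CPM in normal tissue (-1.54 ± 0.21, adjusted p 2.65e-05). In both cases no hyperplasia sample reached the lowest normal sample. Snx31, a sorting nexin gene, was near 0 in hyperplasia at 0, 0.0425 and 0.0858 CPM, while normal tissue held 0.867, 1.97 and 3.12 CPM (adjusted p 3.18e-06). Duox2, an epithelial oxidase that makes hydrogen peroxide, was at 1.46, 2.11 and 2.41 CPM in hyperplasia and 51.9, 13.5 and 18.9 CPM in normal tissue (-3.79 ± 0.70, adjusted p 0.000746). Small shifts were called where replicates lay close together: Ppfibp1, a liprin gene, was 79.9, 84.1 and 88.6 CPM in hyperplasia and 119, 131 and 128 CPM in normal tissue (-0.58 ± 0.06, adjusted p 1.26e-06), and Mtor, the growth-controlling kinase, changed by -0.49 ± 0.08 (adjusted p 9.93e-05).

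**Figure D3:**
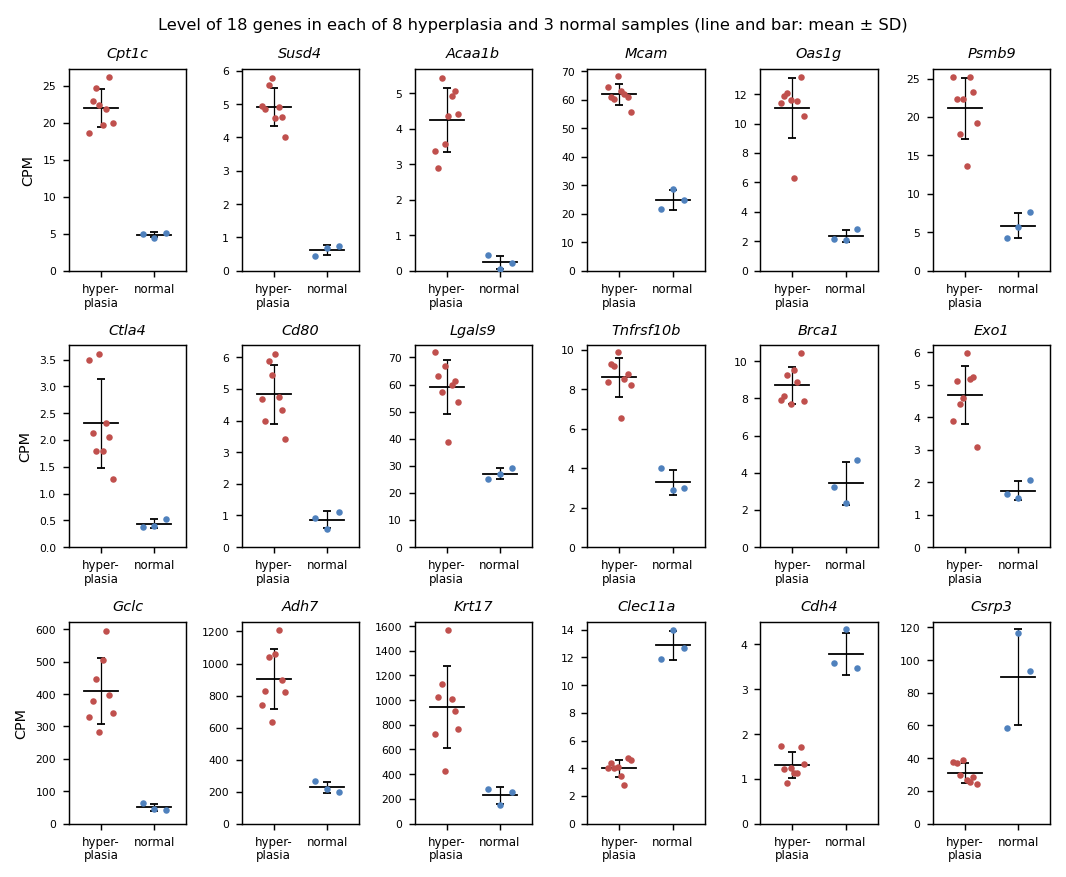
CPM (vertical axes, linear, starting at 0) of 18 genes in each of the 8 hyperplasia samples (red, left) and 3 normal samples (blue, right), with the mean as a line and the SD as a bar. In all 18 panels the groups are apart: Clec11a, Cdh4 and Csrp3 are lower in hyperplasia and the other 15 are higher.

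Signal transducers, nucleic acid sensors and antiviral effectors of the interferon response rose, and 0 of their tested ligand and receptor genes were called. Of 12 interferon ligand and receptor genes, 6 had enough counts to test, of which 1 had an unadjusted p under 0.05 and 0 were called by DESeq2 or limma-voom; the receptor gene Ifnar1 was at 24.5, 26.8 and 29.5 CPM in hyperplasia and 25.1, 22.4 and 21.98 CPM in normal tissue (adjusted p 0.0523). The ligand genes Ifnb1, Ifnk, Ifne, Ifng, Ifnl2 and Ifnl3 were below the filter on low counts. Among 16 transducers and regulators 9 rose and 0 fell, with a median log2 fold change of 0.86; the count was 4 without normal 2. Of 15 nucleic acid sensors 8 rose (median 0.69; 4 without normal 2), and of 28 antiviral effectors 19 rose and 0 fell (median 1.06; 12 without normal 1 and 7 without normal 2). The called effectors had log2 fold changes of 0.68 to 2.90.

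Windows of 300 bases around the start of genes in this group show the interferon-stimulated response element, the site bound by the complex that holds Stat2 and Irf9. The windows run from 250 bases before to 50 after the RefSeq start on GRCm38.p6 and are written 5′ to 3′ on the gene's strand. Capitals mark GAAANNGAA on either strand, with overlapping matches joined. Oas1g and Bst2 are antiviral effectors, Cxcl10 is a T cell chemokine and Lgals9 encodes galectin-9, a ligand of the inhibitory receptor Tim-3.
Oas1g, chr5:120887564-120887863, minus strand: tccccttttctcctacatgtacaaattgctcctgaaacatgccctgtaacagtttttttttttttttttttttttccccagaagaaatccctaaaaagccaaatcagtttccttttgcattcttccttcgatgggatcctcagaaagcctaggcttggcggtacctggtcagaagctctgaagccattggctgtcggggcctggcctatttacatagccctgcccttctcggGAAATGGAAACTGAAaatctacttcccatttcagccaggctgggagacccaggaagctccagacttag
Bst2, chr8:71537423-71537722, minus strand: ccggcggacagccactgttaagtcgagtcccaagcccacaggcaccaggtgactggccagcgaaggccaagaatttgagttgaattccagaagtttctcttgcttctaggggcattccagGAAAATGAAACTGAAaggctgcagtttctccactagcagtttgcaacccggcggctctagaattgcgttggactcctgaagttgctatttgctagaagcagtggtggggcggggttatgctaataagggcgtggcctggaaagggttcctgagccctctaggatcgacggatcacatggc
Cxcl10, chr5:92348840-92349139, minus strand: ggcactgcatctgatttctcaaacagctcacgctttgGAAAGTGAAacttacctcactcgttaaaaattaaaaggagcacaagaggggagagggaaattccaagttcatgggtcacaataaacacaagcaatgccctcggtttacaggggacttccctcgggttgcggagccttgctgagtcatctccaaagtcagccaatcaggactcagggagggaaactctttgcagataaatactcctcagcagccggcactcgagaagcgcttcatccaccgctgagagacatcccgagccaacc
Lgals9, chr11:78984875-78985174, minus strand: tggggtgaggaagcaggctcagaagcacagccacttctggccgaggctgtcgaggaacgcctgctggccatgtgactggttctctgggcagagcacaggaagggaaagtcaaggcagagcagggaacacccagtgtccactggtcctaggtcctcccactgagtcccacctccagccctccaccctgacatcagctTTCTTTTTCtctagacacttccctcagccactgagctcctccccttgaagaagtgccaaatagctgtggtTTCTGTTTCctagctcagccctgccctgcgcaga
This motif was in 61.5% of promoter windows of the antiviral effectors (16 of 26 windows) and in 7.5% of the 15842 windows of all genes tested. It was in 11.9% of the windows of genes that rose and in 8.29% of those of genes that fell. Among sensors the share was 45.5%, among interferon-gamma GTPases 90% (9 of 10 windows), among MHC class I genes 25% and among MHC class II genes 9.09%. A match is a run of letters and does not show that a factor was bound.

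Irf9 and Stat2 encode partners in the transcription factor complex that reads this element. Irf9 was at 42.4, 59.5 and 66.1 CPM in hyperplasia and 26.4, 24.5 and 30.2 CPM in normal tissue (1.095 ± 0.19, adjusted p 0.000285). Stat2 was at 29.4, 52.3 and 60.9 CPM in hyperplasia and 20.97, 18.1 and 19.7 CPM in normal tissue (1.401 ± 0.28, adjusted p 0.00159). The groups were apart for both genes, and hyperplasia 5 was the lowest lesion sample in each. Socs1, the feedback inhibitor of the pathway, rose as well (1.51 ± 0.25, adjusted p 0.000186). Irf7, the factor that amplifies type I interferon, was at 17.7, 36.7 and 41.3 CPM in hyperplasia and 17.2, 16.2 and 18.4 CPM in normal tissue, with overlapping groups and an adjusted p of 0.0477. That call was lost without normal 1 (adjusted p 0.0994), normal 2 (0.189) or normal 3 (0.102) and remained in only 1 of the 11 fits with a library left out.

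The sensors that rose cover RNA and DNA. Cgas, the cytosolic DNA sensor, was at 7.45, 9.29 and 10.2 CPM in hyperplasia and 5.42, 5.12 and 6.24 CPM in normal tissue (0.69 ± 0.12, adjusted p 0.000303). Ddx58, which encodes the RNA sensor RIG-I, was at 14.4, 24.2 and 28.9 CPM in hyperplasia and 10.1, 9.404 and 10.2 CPM in normal tissue (1.25 ± 0.29, adjusted p 0.00444). All 8 lesions were above all 3 normal samples for both. Eif2ak2, the RNA-activated kinase PKR (1.01 ± 0.19, adjusted p 0.000851), and Tlr9, the endosomal DNA sensor (1.55 ± 0.39, adjusted p 0.00799), rose too. The adaptor genes Tmem173 (STING) and Mavs were not called, with log2 fold changes of 0.54 ± 0.23 (adjusted p 0.121) and -0.27 ± 0.10 (adjusted p 0.0652).

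Oas1g, one of the oligoadenylate synthetases that arm RNase L against viral RNA, was at 6.32, 11.5 and 13.2 CPM in hyperplasia against 2.17, 2.08 and 2.86 CPM in normal tissue (2.21 ± 0.36, adjusted p 0.000192). Mx2, a dynamin-like virus restriction gene, was at 2.41, 4.88 and 7.14 CPM in hyperplasia and 1.301, 0.845 and 1.099 CPM in normal tissue (2.18 ± 0.47, adjusted p 0.00269). Bst2, which encodes the virion tether tetherin, was at 17.1, 34.99 and 41.04 CPM in hyperplasia and 10.5, 13.3 and 15.6 CPM in normal tissue (1.32 ± 0.32, adjusted p 0.00598). The 3 genes had no overlap between groups. Samhd1, a nucleotide-degrading restriction factor, rose by 0.86 ± 0.16 (adjusted p 0.00048). Isg15, the ubiquitin-like interferon product, lay at 25.9, 57.97 and 63.7 CPM in hyperplasia and 18.6, 21.7 and 23.7 CPM in normal tissue but was not called (adjusted p 0.0579). Hyperplasia 5 was the lowest of the lesions for 24 of the 28 antiviral effectors, 11 of 16 transducers and 14 of 20 MHC class I genes, against 15.1% of all genes. Without it 20 antiviral effectors were called higher. Oas1a and Oas1g are near-identical copies whose reads the counting could have split, so their separate levels are uncertain.

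The count of interferon-gamma GTPases called higher depended on single libraries and on the fit. Of 15 tested members of that list, which includes Ido1, 7 rose and 0 fell (median 1.34). The count was 4 without hyperplasia 1, 2, 6 or 7, 1 without normal 1 or 3 and 0 without normal 2. It was 9 without hyperplasia 5, 11 with DESeq2, 2 with no filter on low counts, and 13 with the muscle score as a covariate, when the median was 1.7, or with hyperplasia and normal samples fitted alone. Igtp, a GTPase that attacks vacuoles holding microbes, was at 20.7, 33.6 and 45.3 CPM in hyperplasia and 7.21, 6.19 and 10.8 CPM in normal tissue (adjusted p 0.0208); the groups were apart, but the adjusted p was 0.063 without normal 1 and 0.124 without normal 2.

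Antigen presentation genes rose in both classes. Of 20 MHC class I chain and peptide-loading genes 15 rose and 0 fell, with a median log2 fold change of 0.95 and values of 0.34 to 2.63 among those called. H2-K1, a classical class I heavy chain, was at 422, 558 and 616 CPM in hyperplasia and 205, 122 and 199 CPM in normal tissue (1.64 ± 0.21, adjusted p 9.64e-06). B2m, the light chain of every class I molecule, was at 547, 705 and 759 CPM in hyperplasia and 214, 166 and 288 CPM in normal tissue (1.57 ± 0.23, adjusted p 5.69e-05). Neither gene had overlapping groups. H2-D1 (1.09 ± 0.15, adjusted p 4.18e-05) and the peptide transporter subunit Tap2 (1.02 ± 0.19, adjusted p 0.000581) rose also. Class I heavy chain genes share long stretches of sequence, and levels of the single H2 genes are uncertain for that reason.

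Of 5 immunoproteasome subunits and activators 3 rose and 0 fell. Psmb9, an immunoproteasome subunit that replaces a constitutive one to cut peptides for class I, was at 13.6, 22.3 and 25.2 CPM in hyperplasia and 4.28, 5.69 and 7.65 CPM in normal tissue (1.84 ± 0.37, adjusted p 0.00134). Psmb8 was at 17.7, 25.5 and 30.1 CPM in hyperplasia and 8.94, 7.32 and 10.9 CPM in normal tissue (1.42 ± 0.30, adjusted p 0.00203). Both had separate groups. The third inducible subunit, Psmb10, was called at an adjusted p of 0.0488, which was 0.159 without normal 1 and 0.175 without normal 3, and it was called in 3 of the 11 fits. Of the 14 constitutive 20S subunits 0 were called by edgeR, DESeq2 or limma-voom and 0 had an unadjusted p under 0.05, with a median log2 fold change of 0.0451.

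Among 14 MHC class II genes tested, 9 rose and 0 fell, with a median of 0.98. H2-Aa, a class II alpha chain, was at 88.6, 111 and 153 CPM in hyperplasia and 41.1, 44.99 and 55.9 CPM in normal tissue (1.25 ± 0.23, adjusted p 0.000581). Ciita, the master regulator of class II transcription, was at 4.75, 6.06 and 9.86 CPM in hyperplasia and 3.09, 2.25 and 2.33 CPM in normal tissue (1.36 ± 0.24, adjusted p 0.000345). Groups were apart for both, and Cd74, the invariant chain, rose by 1.03 ± 0.22 (adjusted p 0.00263). The dendritic cell markers Itgax, Flt3 and Zbtb46, 1 of 3 of them called higher, summed to 11.1 to 17.1 CPM in hyperplasia against 7.16 to 9.21 CPM in normal tissue. The part of this difference in the class II change was not tested.

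**Figure D4:**
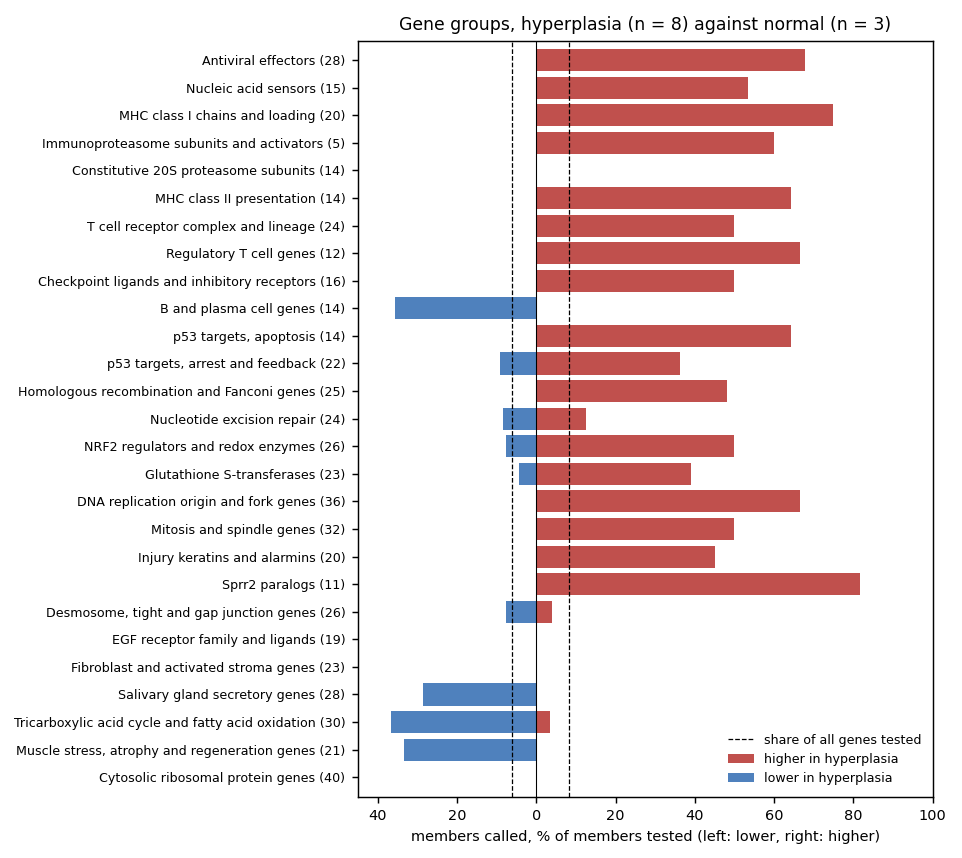
Share of tested members called lower (blue, left) and higher (red, right) in hyperplasia for 27 gene groups, in percent of members tested, with the number tested in brackets; the dashed lines mark the shares among all genes, 6.07% lower and 8.22% higher. Most immune groups, the replication group and the recombination and Fanconi group extend to the right. B and plasma cell genes extend to the left only, and nucleotide excision repair extends to both sides. Metabolic, muscle and salivary groups extend mainly to the left, and 4 groups have no called member.

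T cell genes were more abundant in the lesions. Of 24 T cell receptor complex and lineage genes 12 rose and 0 fell (median 1.49; 4 without normal 2). Trac, the constant part of the T cell receptor alpha chain, was at 0.637, 1.74 and 2.32 CPM in hyperplasia and 0.325, 0.282 and 0.396 CPM in normal tissue (2.22 ± 0.47, adjusted p 0.00203). Il7r, the survival receptor of resting T cells, was at 1.71, 3.54 and 5.04 CPM in hyperplasia and 1.35, 0.676 and 0.703 CPM in normal tissue (1.97 ± 0.36, adjusted p 0.000501). The lesions were above normal tissue in each sample for both genes. Cd4 also rose (2.04 ± 0.46, adjusted p 0.00401), whereas Cd8a, at 0.3004, 0.6403 and 1.297 CPM in hyperplasia and 0.271, 0 and 0.308 CPM in normal tissue, was not called (adjusted p 0.137). The T cell markers Cd3d, Cd3e and Cd3g, of which 2 of 3 were called, summed to 2.11 to 4.92 CPM in hyperplasia and 0.675 to 1.41 CPM in normal tissue; whether the genes of this paragraph and the next change beyond that share was not tested. Of 10 tested cytotoxic and natural killer genes 2 rose and 0 fell, with 1 higher without normal 2 and 0 without normal 3.

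Of 12 regulatory T cell genes tested, 8 rose and 0 fell, with a median of 1.94. Tnfrsf18, the costimulatory receptor GITR, was at 3.54, 4.57 and 5.28 CPM in hyperplasia and 0.759, 0.901 and 1.41 CPM in normal tissue (2.13 ± 0.26, adjusted p 6.14e-06). Ctla4, the inhibitory receptor that competes for B7 ligands, was at 1.27, 2.097 and 3.604 CPM in hyperplasia and 0.379, 0.394 and 0.528 CPM in normal tissue (2.39 ± 0.42, adjusted p 0.000399). No normal sample reached the lowest lesion for either gene. Il2ra, the high-affinity interleukin-2 receptor chain (1.75 ± 0.25, adjusted p 4.85e-05), Tnfrsf4 or OX40 (1.54 ± 0.35, adjusted p 0.00426) and Tnfrsf9 or 4-1BB (2.66 ± 0.56, adjusted p 0.00214) rose as well. Foxp3, the transcription factor that defines the lineage, was among the 8 that rose (3.71 ± 0.41, adjusted p 1.26e-06). Ikzf2 and Ikzf4, which encode other transcription factors of these cells, were not called, with log2 fold changes of -0.42 ± 0.16 (adjusted p 0.0635) and -0.41 ± 0.20 (adjusted p 0.175), and neither were Lrrc32 (adjusted p 0.691) and Il1rl1 (adjusted p 0.832).

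Among 16 tested checkpoint ligands and inhibitory receptors 8 rose and 0 fell, with a median of 0.93. On the ligand side, Cd80, which binds Cd28 and Ctla4, was at 3.43, 4.71 and 6.1 CPM in hyperplasia and 0.921, 0.563 and 1.099 CPM in normal tissue (2.47 ± 0.35, adjusted p 4.49e-05). Lgals9 was at 38.95, 60.5 and 72.1 CPM in hyperplasia and 25.1, 26.97 and 29.4 CPM in normal tissue (1.12 ± 0.22, adjusted p 0.00131). Groups did not overlap for these ligands. Cd86 rose by 1.13 ± 0.26 (adjusted p 0.00494). Cd274, which encodes PD-L1, was at 9.74, 11.7 and 15.5 CPM in hyperplasia and 4.66, 5.41 and 6.02 CPM in normal tissue, but its adjusted p of 0.0309 became 0.0933, 0.126 and 0.0653 without normal 1, 2 and 3. On the receptor side, Pdcd1 (PD-1) was at 0.392, 0.719 and 1.005 CPM in hyperplasia and 0.0542, 0.0563 and 0 CPM in normal tissue, where its reads totalled 2, so no fold is given (adjusted p 0.000394). Havcr2 (Tim-3) was at 1.67, 2.45 and 3.36 CPM in hyperplasia and 0.488, 0.394 and 0.791 CPM in normal tissue (2.13 ± 0.39, adjusted p 0.000576). Lag3 overlapped between groups, at 0.588, 0.861 and 1.37 CPM in hyperplasia and 0.325, 0.845 and 0.528 CPM in normal tissue (adjusted p 0.121).

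Of 30 tested chemokine ligands 8 rose and 1 fell; the number higher was 5 without normal 2 and 4 without normal 3. Cxcl10, which draws T cells through Cxcr3, was at 5.65, 11 and 13.5 CPM in hyperplasia and 0.434, 0.282 and 0.703 CPM in normal tissue (4.44 ± 0.82, adjusted p 0.000714). Ccl22, a dendritic cell product that draws regulatory T cells through Ccr4, was at 2.96, 4.33 and 5.09 CPM in hyperplasia and 0.488, 0.4505 and 0.572 CPM in normal tissue (3.01 ± 0.35, adjusted p 2.37e-06). The lowest lesion exceeded the highest normal sample several-fold in both. Cxcl9, the other Cxcr3 ligand of this kind, was at 4.98, 7.48 and 13.4 CPM in hyperplasia and 0.976, 1.24 and 3.43 CPM in normal tissue and was not called (adjusted p 0.0603). Of 16 tested chemokine receptors 5 rose and 0 fell, and 3 were called without normal 2; Cx3cr1 rose by 1.28 ± 0.23 (adjusted p 0.000506) and Ccr7 by 2.49 ± 0.53 (adjusted p 0.00232).

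Part of the myeloid genes rose. Of 18 dendritic and Langerhans cell genes 7 rose and 0 fell. Of 24 macrophage and monocyte genes 6 rose and 2 fell, with 3 higher without normal 2, 1 lower without normal 1 or 3 and 0 lower with the muscle score as a covariate. Fcgr1, the high-affinity receptor for immunoglobulin G, rose from this list (2.49 ± 0.44, adjusted p 0.000399). Lyz1, a lysozyme gene, was at 4.31, 6.42 and 6.97 CPM in hyperplasia and 10.2, 11.3 and 12.2 CPM in normal tissue (-0.901 ± 0.24, adjusted p 0.0125), with no overlap. The macrophage markers Csf1r, Adgre1 and C1qa had 0 of 3 called and summed to 55.6 to 89.6 CPM in hyperplasia and 41.7 to 66.9 CPM in normal tissue. B and plasma cell genes had 0 of 14 higher and 5 lower (median -1.18), but 1 was lower without normal 1. In that library Igha, an antibody heavy chain gene, was at 23.3 CPM, whereas normal 2 and 3 and all lesions were below 1 CPM. Ighg2c was lower with any library left out, at 0.147, 0.529 and 1.06 CPM in hyperplasia and 1.73, 2.25 and 1.54 CPM in normal tissue (-1.751 ± 0.39, adjusted p 0.00319).

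Targets of p53 rose in the lists for cell death and for arrest. Of 14 apoptosis targets 9 rose and 0 fell (median 0.56; 5 without normal 2), and of 22 arrest and feedback targets 8 rose and 2 fell (3 without normal 2 and 5 without normal 3). The difference between these lists was not tested. Tnfrsf10b, the TRAIL death receptor, was at 6.55, 8.67 and 9.87 CPM in hyperplasia and 4.01, 2.87 and 2.99 CPM in normal tissue (1.39 ± 0.21, adjusted p 8.53e-05). Apaf1, the scaffold of the apoptosome, was at 10.98, 13.8 and 15.1 CPM in hyperplasia and 8.62, 6.59 and 7.08 CPM in normal tissue (0.85 ± 0.15, adjusted p 0.000399). The groups were apart for both, and Bax, which permeabilises mitochondria, rose by 0.65 ± 0.13 (adjusted p 0.0015). Trp53inp1, a stress-induced cofactor of p53, was at 76.3, 91.2 and 111 CPM in hyperplasia and 53.3, 40.5 and 44.1 CPM in normal tissue (0.98 ± 0.18, adjusted p 0.000508), without overlap. Cdkn1a (p21), the main arrest target, was at 316, 401 and 509 CPM in hyperplasia and 367, 312 and 372 CPM in normal tissue and was not called (adjusted p 0.284), and Mdm2, the feedback inhibitor, was at 49.3, 52.6 and 55.5 CPM in hyperplasia and 45.6, 52.5 and 48.7 CPM in normal tissue (adjusted p 0.279). The values of both genes overlapped between groups. Phlda3, an Akt-inhibiting target, fell (-0.53 ± 0.10, adjusted p 0.000515), although normal 3 lay inside the range of the lesions.

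Genes of repair by recombination rose. Of 25 homologous recombination and Fanconi genes 12 rose and 0 fell (median 0.54), with log2 fold changes of 0.66 to 1.49. Of 24 genes of nucleotide excision repair, the pathway that removes bulky adducts, 3 rose and 2 fell. The number higher was 1 without hyperplasia 6, without normal 2 or 3 and with the muscle score as a covariate, and the number lower was 0 with the muscle score as a covariate. Brca1, which starts repair at broken forks, was at 7.68, 8.495 and 10.5 CPM in hyperplasia and 3.25, 2.37 and 4.66 CPM in normal tissue (1.34 ± 0.22, adjusted p 0.000215). All 8 lesions were above every normal sample. Fanca, of the complex that detects crosslinks, rose by 1.38 ± 0.23 (adjusted p 0.00021), Fancd2, which that complex marks with ubiquitin, by 0.91 ± 0.16 (adjusted p 0.000508) and the end-resecting nuclease Exo1 by 1.42 ± 0.22 (adjusted p 0.000134). The adduct sensor Xpc was not called (-0.14 ± 0.08, adjusted p 0.224). Of 11 translesion synthesis genes 4 rose, and the number higher was 2 without hyperplasia 3, 4, 5, 6 or 7 and 1 without normal 1, 2 or 3, and 2 with the muscle score as a covariate; Polk, a polymerase that copies past bulky guanine adducts, was at 10.7, 12.1 and 14.3 CPM in hyperplasia and 7.37, 7.04 and 6.86 CPM in normal tissue (0.796 ± 0.13, adjusted p 0.00021), with no overlap. Among 18 damage checkpoint genes 5 rose and 1 fell, and the number higher was 3 without hyperplasia 4 or 7, 2 without normal 2 and 3 without normal 3, and 2 with the muscle score as a covariate; Chek1, the kinase that answers stalled forks, rose by 1.08 ± 0.22 (adjusted p 0.0017) and its adaptor Clspn by 1.19 ± 0.20 (adjusted p 0.0002).

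Detoxification genes formed a further block. Promoter windows of 2 of them hold TGACNNNGC, the core letters of the antioxidant response element at which Nrf2 acts. Capitals mark these letters on either strand. A match to the core does not show that the whole element is present or that Nrf2 was bound. Gclm encodes the modifier subunit of the enzyme that starts glutathione synthesis, and Srxn1 the reductase of overoxidised peroxiredoxins.
Gclm, chr3:122245307-122245606, plus strand: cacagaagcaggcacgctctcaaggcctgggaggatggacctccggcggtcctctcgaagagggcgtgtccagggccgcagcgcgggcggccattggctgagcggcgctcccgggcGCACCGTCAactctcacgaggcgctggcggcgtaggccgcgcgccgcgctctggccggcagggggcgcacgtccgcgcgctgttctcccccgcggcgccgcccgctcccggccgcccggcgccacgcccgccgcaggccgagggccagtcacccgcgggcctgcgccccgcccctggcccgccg
Srxn1, chr2:152105274-152105573, plus strand: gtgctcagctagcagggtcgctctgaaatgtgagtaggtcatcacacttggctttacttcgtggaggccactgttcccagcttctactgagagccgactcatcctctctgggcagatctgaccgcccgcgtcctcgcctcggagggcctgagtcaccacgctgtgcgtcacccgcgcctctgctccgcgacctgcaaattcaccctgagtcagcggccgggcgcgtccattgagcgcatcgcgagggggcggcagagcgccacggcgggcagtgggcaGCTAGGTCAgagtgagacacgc
The motif was in 37% of windows of the NRF2 list (10 of 27), in 14.2% of all windows, in 13.5% of windows of genes that rose and in 13.7% of those of genes that fell. It was in 13.3% of windows of glutathione S-transferase genes and in 0 of 19 windows of the aldo-keto, carbonyl and aldehyde enzymes, which says only that these letters are not in those windows.

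Of 26 NRF2 regulators and redox enzymes 13 rose and 2 fell (median 0.56; 7 without normal 2). Slc7a11, the cystine importer that feeds glutathione synthesis, was at 119.8, 189.9 and 372 CPM in hyperplasia and 24.7, 14.8 and 18.8 CPM in normal tissue (3.46 ± 0.54, adjusted p 0.000135). Gclc, the catalytic subunit of glutamate-cysteine ligase, was at 284, 389 and 596 CPM in hyperplasia and 62.7, 45.2 and 42.9 CPM in normal tissue (3.03 ± 0.48, adjusted p 0.000161). Gclm was at 114, 144 and 191 CPM in hyperplasia and 67.4, 47.1 and 53.7 CPM in normal tissue (1.41 ± 0.25, adjusted p 0.000528). The lowest lesion exceeded the highest normal sample for the 3 genes. Gss, which completes glutathione, rose by 1.03 ± 0.20 (adjusted p 0.000946), the epithelial peroxidase gene Gpx2 by 1.05 ± 0.20 (adjusted p 0.000861) and Pgd, an NADPH-making enzyme of the pentose phosphate path, by 0.67 ± 0.11 (adjusted p 0.000243). Srxn1, at 173, 201 and 257 CPM in hyperplasia and 84.9, 95.1 and 94.2 CPM in normal tissue, had an adjusted p of 0.00775, and 0.0516 without normal 2.

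Of 23 glutathione S-transferase genes, which couple glutathione to electrophiles, 9 rose and 1 fell (4 without normal 2 or 3). Gsta1 was at 35.7, 50.1 and 69.1 CPM in hyperplasia and 9.27, 10.02 and 7.83 CPM in normal tissue (2.48 ± 0.39, adjusted p 0.000161). Gsta4, which clears lipid peroxidation products, was at 511, 618 and 804 CPM in hyperplasia and 263, 206 and 227 CPM in normal tissue (1.48 ± 0.24, adjusted p 0.00014). Groups were apart for both, and Gstp1 rose by 1.14 ± 0.21 (adjusted p 0.000714). Alpha and pi class transferases have close copies, so their reads may be split between them. Among 24 tested aldo-keto, carbonyl and aldehyde enzymes 8 rose and 0 fell. Adh7, an epithelial alcohol and retinol dehydrogenase, was at 631, 862 and 1209.8 CPM in hyperplasia and 266, 215 and 197 CPM in normal tissue (1.999 ± 0.30, adjusted p 9.69e-05). Ptgr1, a reductase of reactive carbonyls, was at 661, 738 and 986 CPM in hyperplasia and 287, 206 and 235 CPM in normal tissue (1.73 ± 0.23, adjusted p 1.87e-05). Both were above normal tissue in every lesion. Ephx1, the microsomal epoxide hydrolase, rose by 0.78 ± 0.13 (adjusted p 0.00019) and the carbonyl reductase gene Cbr3 by 1.26 ± 0.21 (adjusted p 0.000218). Among cytochrome P450 genes Cyp2f2, which activates aromatic compounds in airway epithelium, fell instead, with 42.7, 67.9 and 101 CPM in hyperplasia and 323, 241 and 187 CPM in normal tissue (-1.88 ± 0.37, adjusted p 0.00136), and no lesion reached the lowest normal value.

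Genes of DNA replication rose. Windows at 2 helicase subunit genes carry the site of E2F, the factor that opens S phase; capitals mark TTTGGCGC or TTTCCCGC on either strand.
Mcm3, chr1:20820263-20820562, minus strand: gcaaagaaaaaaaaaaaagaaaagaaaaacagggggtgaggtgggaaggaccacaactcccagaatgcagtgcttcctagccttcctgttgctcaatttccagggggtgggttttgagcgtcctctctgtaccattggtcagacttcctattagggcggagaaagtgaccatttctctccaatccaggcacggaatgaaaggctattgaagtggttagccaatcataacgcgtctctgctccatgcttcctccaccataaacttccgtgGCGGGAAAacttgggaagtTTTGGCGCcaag
Mcm5, chr8:75109259-75109558, plus strand: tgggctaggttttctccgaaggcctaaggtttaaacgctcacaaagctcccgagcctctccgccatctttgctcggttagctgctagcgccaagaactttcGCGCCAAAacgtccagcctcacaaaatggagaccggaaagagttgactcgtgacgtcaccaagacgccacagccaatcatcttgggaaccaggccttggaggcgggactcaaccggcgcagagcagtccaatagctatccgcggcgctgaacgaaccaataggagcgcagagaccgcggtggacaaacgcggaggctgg
Either form was in 33.3% of windows of the replication list (11 of 33), in 0 of 27 windows of the mitosis list, in 2.47% of all windows, in 3.96% of windows of genes that rose and in 2.33% of those of genes that fell. TTTGAA, the cell cycle homology region used by late cell cycle genes, was in 70.4% of mitosis windows, 15.2% of replication windows and 12.8% of all windows. CCAAT was in 77.8% of mitosis windows, 57.6% of replication windows and 36.8% of all windows.

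Of 36 replication origin and fork genes 24 rose and 0 fell (median 0.67; 11 without normal 2), with log2 fold changes of 0.37 to 1.62. Mcm5, a subunit of the replicative helicase, was at 26.2, 31.9 and 36.4 CPM in hyperplasia and 11.4, 9.07 and 13.3 CPM in normal tissue (1.46 ± 0.21, adjusted p 4.86e-05). Mcm10, which activates that helicase, was at 4.51, 6.399 and 7.89 CPM in hyperplasia and 2.49, 1.91 and 2.81 CPM in normal tissue (1.35 ± 0.22, adjusted p 0.000186). The groups did not overlap for either gene. Lig1, which seals lagging strand fragments, rose by 0.89 ± 0.15 (adjusted p 0.00021) and the origin-binding gene Orc1 by 1.62 ± 0.36 (adjusted p 0.00345). Of 19 nucleotide supply genes 12 rose and 1 fell, and the number higher was 7 without normal 1 and 3 without normal 2; Rrm2, the small subunit of ribonucleotide reductase, was at 23.6, 28.4 and 33 CPM in hyperplasia and 19.02, 10.3 and 12.4 CPM in normal tissue (1.03 ± 0.20, adjusted p 0.00125), with separate groups. Paics, a purine synthesis enzyme, was the member that fell (-0.299 ± 0.07, adjusted p 0.00364).

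Of 18 control genes of the G1 to S step tested, 8 rose and 1 fell, and the number higher was 4 without normal 2 and 5 without normal 3, and 4 with the muscle score as a covariate. E2f1 was at 5.34, 6.32 and 7.33 CPM in hyperplasia and 3.58, 2.42 and 3.25 CPM in normal tissue (1.03 ± 0.17, adjusted p 0.0002). Ccne1, the cyclin E that starts S phase, was at 6.08, 7.24 and 8.69 CPM in hyperplasia and 2.98, 1.69 and 2.55 CPM in normal tissue (1.59 ± 0.33, adjusted p 0.00171). All lesions exceeded all normal samples in both genes, and Mybl2, a cell cycle transcription factor counted with the mitosis list, rose by 1.38 ± 0.24 (adjusted p 0.000367). Mycl, a Myc family gene, fell to 13.5, 15.7 and 20.7 CPM in hyperplasia, against 34.4, 28.8 and 30.6 CPM in normal tissue (-0.94 ± 0.19, adjusted p 0.00117), and the cyclin kinase inhibitor Cdkn1b (p27) fell as well (-0.28 ± 0.07, adjusted p 0.00559). Myc itself overlapped between groups, at 40.2, 48.8 and 53.5 CPM in hyperplasia and 43.2, 30.6 and 27.3 CPM in normal tissue (adjusted p 0.0148, 0.157 without normal 2 and 0.159 without normal 3). Of the 7 Cdkn2 and Cdkn1 inhibitor genes 2 rose and 1 fell. The number higher was 1 without normal 1, 2 or 3.

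Of 32 mitosis and spindle genes 16 rose and 0 fell (median 0.44), but the count was 10 without hyperplasia 3 or 6, 9 without hyperplasia 7 and 1 without normal 1 or 2. It was 3 with the muscle score as a covariate, 6 with no filter on low counts and 9 with limma-voom. Top2a, which untangles sister chromosomes, was at 89.2, 120.3 and 135 CPM in hyperplasia and 52.4, 60.1 and 105 CPM in normal tissue, with normal 3 inside the range of the lesions (adjusted p 0.00584, 0.0634 without normal 1 and 0.0877 without normal 2). Mki67 overlapped likewise, at 90.2, 119.9 and 133 CPM in hyperplasia and 78.96, 62.1 and 98.1 CPM in normal tissue (adjusted p 0.0278, 0.0771 without normal 1 and 0.274 without normal 2). Gtse1, a spindle protein that also restrains p53 and is counted with its arrest targets, kept its call in each fit, at 10.6, 12.1 and 15.9 CPM in hyperplasia and 6.34, 6.14 and 7.08 CPM in normal tissue (0.92 ± 0.15, adjusted p 0.000139).

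Part of the keratin and alarmin genes of injured epithelium and most of the Sprr2 envelope genes rose. Of 20 injury keratin and alarmin genes 9 rose and 0 fell (median 0.89; 4 without normal 2). Krt16, a keratin made in wound edges, was at 1796, 3547 and 4714 CPM in hyperplasia and 1381, 996 and 1415 CPM in normal tissue (1.42 ± 0.28, adjusted p 0.00124). Krt17, another keratin of injured and neoplastic squamous epithelium, was at 428, 962 and 1564 CPM in hyperplasia and 279, 153 and 254 CPM in normal tissue (2.05 ± 0.44, adjusted p 0.00252). Groups were apart for both, and Krt6a rose by 0.97 ± 0.19 (adjusted p 0.00127). S100a8, the alarmin subunit of calprotectin, ranged widely between lesions, at 5.54, 17.5 and 553 CPM in hyperplasia and 2.82, 1.41 and 1.41 CPM in normal tissue (adjusted p 0.00755, 0.0576 without normal 2).

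Of 11 Sprr2 paralogs, small proline-rich crosslinkers of the cell envelope, 9 rose and 0 fell, and 4 were called without normal 2, 5 with hyperplasia and normal samples fitted alone and 2 with limma-voom. Sprr2i was at 21.5, 39.9 and 335 CPM in hyperplasia and 7.97, 4.45 and 5.67 CPM in normal tissue (3.97 ± 0.82, adjusted p 0.00209), with no overlap. The median fitted log2 fold change of the paralogs was 4.35, and 3.34 with the 2 members at 0 in every normal sample set at a floor of 3 counts over the normal group. Hyperplasia 5 was the highest lesion for all 11 paralogs and for 16 of 20 injury genes, and without it 6 paralogs and 9 injury genes were called higher. Hyperplasia 4 was the lowest for 14 of 20 injury genes. The paralogs are near-identical, so reads may be shared among them.

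In the other epithelial lists of this paragraph 1 to 6 members rose and 0 to 2 fell, where 8.22% of all genes rose and 6.07% fell. Of 28 cornified envelope genes outside this family 3 rose, with 0 without normal 2, 1 without normal 3 and 0 with the muscle score as a covariate. Krt1 was the 1 of 10 suprabasal keratins tested that rose, at 12.9, 34.8 and 96.9 CPM in hyperplasia and 12.9, 7.49 and 7.91 CPM in normal tissue (adjusted p 0.0254; 0.143 without normal 2 and 0.0951 without normal 3), so the lowest lesion lay level with normal 1. Of 19 squamous lineage transcription factors 1 rose, of 17 basal keratinocyte and hemidesmosome genes 1 rose and 2 fell, and of 26 junction genes 1 rose and 2 fell. Named gap junction genes moved in opposite directions: Gjb5 fell (-0.83 ± 0.17, adjusted p 0.00147), and Gjb2, which rises in hyperproliferative skin, was at 421, 512 and 701 CPM in hyperplasia and 269, 223 and 280.4 CPM in normal tissue (adjusted p 0.0267; 0.0662, 0.171 and 0.0705 without normal 1, 2 and 3). Of 25 squamous proteases and serpins 2 rose and 2 fell; the number higher was 0 without normal 1, 2 or 3 and 1 with the muscle score as a covariate. The members that fell were Tmprss11a, a transmembrane serine protease (-0.83 ± 0.19, adjusted p 0.00432), and Serpinb13, a protease inhibitor (-1.37 ± 0.26, adjusted p 0.000808). Of 25 skin lipid barrier genes 6 rose and 1 fell, with 2 higher without normal 2; Degs2, which makes phytoceramides, was at 3.56, 5.73 and 12.6 CPM in hyperplasia and 0.596, 0.845 and 1.63 CPM in normal tissue (2.68 ± 0.47, adjusted p 0.000362), without overlap.

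Of 28 tested genes of the interleukin-1, interleukin-17 and interleukin-36 axis 5 rose and 0 fell, and the number higher was 3 without hyperplasia 6, 1 without normal 2 and 2 without normal 3, and 2 with the muscle score as a covariate. Nfkbiz, the nuclear cofactor that interleukin-17 and interleukin-36 induce in keratinocytes, was at 18.8, 34.4 and 59.1 CPM in hyperplasia and 15.99, 9.63 and 12.4 CPM in normal tissue (1.51 ± 0.30, adjusted p 0.0014), with every lesion above normal tissue. Zc3h12a, which encodes the messenger-degrading brake Regnase-1, was at 18.6, 34.4 and 62.4 CPM in hyperplasia and 17.8, 13.6 and 17.3 CPM in normal tissue (adjusted p 0.0169, 0.129 without normal 2 and 0.053 without normal 3).

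Lists of growth pathways, driver genes, ribosomes and stroma had 0 to 5 members higher and 0 to 2 lower, where 8.22% of all genes rose and 6.07% fell. Of 19 genes of the EGF receptor family and its ligands 0 were called by edgeR (median 0.132), 4 had an unadjusted p under 0.05, and DESeq2 called 1 lower. Of 20 AP-1 and immediate early genes edgeR called 0, 5 had an unadjusted p under 0.05, and DESeq2 called 1 higher. Of 30 TGF-beta, activin and BMP genes 0 rose and 2 fell, of 34 Wnt genes 1 rose and 1 fell, and of 20 Notch genes 3 rose and 0 fell, and the number higher was 0 without normal 1 or 2 and 1 without normal 3, and 0 with the muscle score as a covariate. Of 20 oral squamous carcinoma driver genes 5 rose and 0 fell, and the number higher was 1 without normal 2 and 3 without normal 3, and 3 with the muscle score as a covariate. The called driver genes had log2 fold changes of 0.36 to 4.17. None of 40 cytosolic ribosomal protein genes (median -0.17) and none of 23 fibroblast and activated stroma genes (median -0.0296) was called by edgeR. Unadjusted p was under 0.05 for 4 of these ribosomal and 2 of these stroma genes, and DESeq2 called 2 ribosomal genes lower and 0 stroma genes; limma-voom called 0 in each of the 4 lists. Over the 7 other settings that kept all samples, at most 3 EGF list genes were called higher and 1 lower. For AP-1 and immediate early genes the most were 4 higher and 2 lower. At most 5 ribosomal genes were called lower and 0 higher, and 0 stroma genes were called either way. A miss of the threshold does not show that these genes were equal in the groups. Of 21 collagen genes 4 rose and 1 fell, and the number higher was 2 without hyperplasia 1 or 3, 1 without normal 1 or 2 and 2 without normal 3, and Col4a6, a basement membrane chain, was at 1.23, 2.95 and 3.52 CPM in hyperplasia and 6.99, 6.76 and 7.08 CPM in normal tissue (-1.33 ± 0.24, adjusted p 0.000508), with no overlap. Trp73, the p53 relative of squamous and ciliated lining, was at 2.99, 4.65 and 6.22 CPM in hyperplasia and 7.97, 7.996 and 7.96 CPM in normal tissue (-0.76 ± 0.17, adjusted p 0.00401), again with groups apart.

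Some genes of salivary glands and muscle were among those that fell. Of 28 tested salivary secretory genes 8 fell and 0 rose, with 4 without normal 3. The list as a whole did not shift: its median log2 fold change was -0.0517. That median was 0.0867 without hyperplasia 5 and 0.0603 with the muscle score as a covariate. Klk1b26, a glandular kallikrein, was at 10.5, 11.2 and 17.8 CPM in hyperplasia and 21.2, 21.2 and 65.5 CPM in normal tissue (-1.53 ± 0.25, adjusted p 0.000186). Crisp3, a cysteine-rich secretory gene, was at 0.0792, 0.149 and 2.65 CPM in hyperplasia and 20.7, 2.93 and 29.6 CPM in normal tissue (-5.28 ± 1.31, adjusted p 0.00865). Lesions were below all normal samples in both genes, and hyperplasia 8 was the highest lesion for 21 of the 28. The salivary markers, 1 of 5 of them called lower, overlapped widely between groups, at 1.497 to 2828 CPM in hyperplasia and 23.6 to 1210 CPM in normal tissue. The medians of their sum were 63.9 CPM in hyperplasia and 23.9 CPM in normal tissue. Genes outside the list that fell included Cyp2a5, a cytochrome P450, at 2.45, 5.27 and 7.69 CPM in hyperplasia and 29.3, 37.6 and 19.7 CPM in normal tissue (-2.47 ± 0.52, adjusted p 0.00228), and Fxyd2, a regulator of the sodium pump, at 1.201, 1.88 and 2.32 CPM in hyperplasia and 17.6, 10.5 and 6.51 CPM in normal tissue (-2.65 ± 0.59, adjusted p 0.00362). Groups were separate for these genes as well. Krtap9-1, a keratin-associated protein gene of hair and tongue papillae, was at 0.04899, 2.36 and 5.49 CPM in hyperplasia and 37.3, 18.2 and 32.7 CPM in normal tissue (-3.46 ± 0.85, adjusted p 0.00833). Of 16 genes tested in the hair-type keratin list 1 fell and 0 rose, a share near the 6.07% of all genes that fell. The list leaned lower, with a median of -0.701. For 3 of the 16 all 8 lesions were below every normal sample, against 5.52% of all genes.

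Muscle genes were mostly uncalled but leaned lower. Of 29 tested contractile genes 1 rose and 5 fell (median -0.42), and the number lower was 8 without hyperplasia 4, 3 without hyperplasia 6 or 7 and 0 without normal 2. Of 21 muscle stress, atrophy and regeneration genes 7 fell and 0 rose, 4 without normal 2 and 6 with the muscle score as a covariate. Csrp3, a stretch-sensing muscle protein, was at 24.4, 28.98 and 39 CPM in hyperplasia and 58.2, 116 and 93.5 CPM in normal tissue (-1.52 ± 0.30, adjusted p 0.00135). Hspb7, a small heat shock protein of muscle counted with the chaperones, was at 209.5, 235 and 313 CPM in hyperplasia and 508, 702 and 575 CPM in normal tissue (-1.22 ± 0.20, adjusted p 0.000177). Fbxo32, the atrophy-linked ubiquitin ligase atrogin-1, was at 171, 212 and 248 CPM in hyperplasia and 646, 351 and 280.1 CPM in normal tissue (-1.03 ± 0.20, adjusted p 0.00123). The lesions lay below normal tissue throughout. Hyperplasia 4 held the highest level of 24 of the 29 contractile genes and hyperplasia 7 the lowest of 24. The muscle markers Acta1, Myh4, Ckm and Mb, 1 of 4 called lower, summed to 20220 to 35440 CPM in hyperplasia and 30940 to 42150 CPM in normal tissue. With the muscle score as a covariate 3 contractile genes were called higher and 3 lower, with a median of -0.0301. The score is the mean of these same genes, so that fit cannot show whether they differ as a group.

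Part of the energy metabolism genes fell. Of 30 tricarboxylic acid cycle and fatty acid oxidation genes 11 fell and 1, Cpt1c, rose; the number lower was 6 without hyperplasia 3 or 7, 18 without hyperplasia 4, 5 without hyperplasia 6 and 2 without normal 2, and 5 with the muscle score as a covariate. Acadl, which oxidises long-chain acyl-CoA, was at 279.8, 345 and 446 CPM in hyperplasia and 547, 545 and 487 CPM in normal tissue (-0.600 ± 0.16, adjusted p 0.0105), with separate groups. Of 42 nuclear oxidative phosphorylation genes 9 fell, with log2 fold changes of -0.50 to -0.34, and the count was 14 without hyperplasia 1, 28 without hyperplasia 4, 4 without hyperplasia 5, 3 without hyperplasia 6, 2 without hyperplasia 7, 5 without hyperplasia 8, 32 without normal 1 and 0 without normal 2, 1 with the covariate and 29 with DESeq2. Mitochondrially encoded genes took 7.2, 9.23 and 10.6% of counts in hyperplasia (lowest, median, highest) against 10.7, 13.7 and 10.4% in normal tissue. The means were 9.16 ± 1.16% in hyperplasia and 11.6 ± 1.83% in normal tissue (SD, n = 8 and n = 3; difference −2.45, two-sided exact permutation p = 0.0242, the smaller tail doubled). The exact permutation p was 0.0889 without normal 1 and also without normal 2, and 0.0444 without normal 3. With so few normal samples only a few values of this p can occur. Of 30 glycolysis and hypoxia genes 0 rose and 6 fell, 1 without normal 2 and 3 with the muscle score as a covariate.

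Some falls depended on normal 1. Of 9 erythrocyte genes 7 fell, but 0 without normal 1 and 4 without hyperplasia 7 or with the muscle score as a covariate. Of 13 adipocyte genes 5 fell, 0 without normal 1 and 3 without hyperplasia 3 or with the muscle score as a covariate. Erythrocyte markers were called lower in 3 of 3 and adipocyte markers in 0 of 3; the adipocyte markers summed to 81.2 to 163 CPM in hyperplasia and 132 to 186 CPM in normal tissue. Of 18 glucocorticoid-responsive genes 1 rose and 5 fell, and the number lower was 3 without hyperplasia 1 or 6, 2 without hyperplasia 2, 3 or 7 and 1 without normal 1, and 2 with the muscle score as a covariate. Fkbp5, a hormone-induced chaperone of the glucocorticoid receptor, was at 14.3, 21.8 and 27.3 CPM in hyperplasia and 131, 30.1 and 26.7 CPM in normal tissue, so that normal 1 stood alone (adjusted p 0.0011, 0.24 without it). Zbtb16, another gene of this list, was lower in all lesions, at 16.4, 19.7 and 27.3 CPM in hyperplasia and 87.2, 43.2 and 34.2 CPM in normal tissue (-1.36 ± 0.24, adjusted p 0.000381). Of 19 circadian clock genes 3 fell and 0 rose; Hlf, a clock output factor, was at 5.81, 8.11 and 8.97 CPM in hyperplasia and 16.1, 13.6 and 12.1 CPM in normal tissue (-0.85 ± 0.19, adjusted p 0.00319), with no overlap. The hour of sampling is not in the labels, and its part was not tested.

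Of 1304 long noncoding RNAs tested, 86 rose (6.6%) and 27 fell (2.07%). Both shares were below those of all genes tested, 8.22% higher and 6.07% lower. AI506816 was at 86.5, 93.5 and 113 CPM in hyperplasia and 47.3, 41.8 and 55.96 CPM in normal tissue (0.996 ± 0.13, adjusted p 1.62e-05). Neat1, the scaffold of nuclear paraspeckles, was at 765, 935 and 1251 CPM in hyperplasia and 604, 538 and 583 CPM in normal tissue (0.78 ± 0.14, adjusted p 0.000605). Both were above normal tissue in all lesions. Gm33280 fell (-2.300 ± 0.42, adjusted p 0.000613).

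Hyperplasia was also set directly against dysplasia, the next stage, to ask which values differ between these lesions. The 7 dysplasia samples carry the code letter B, and the comparison shares the 8 hyperplasia samples with the one above. The test called 387 genes higher in hyperplasia (2.19% of genes tested) and 527 lower (2.99%), together 5.18%; 191 and 210 of them were called whichever of the 15 libraries was left out. Total calls were 1414 without dysplasia 1, 554 without dysplasia 3, 518 without dysplasia 4, 520 without dysplasia 6, 583 without hyperplasia 1 and 509 without hyperplasia 4, against 914 with all libraries.

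Cpt1c, Susd4, Acaa1b and Igsf9b were higher in hyperplasia than in normal tissue and than in dysplasia. Mean levels of Cpt1c were 4.86 ± 0.364 CPM in normal tissue, 21.98 ± 2.604 CPM in hyperplasia and 7.59 ± 0.599 CPM in dysplasia, and those of carcinoma in situ and invasive tumours were 7.69 ± 0.981 and 7.28 ± 1.56 CPM (SD, n = 3, 8, 7, 6 and 6). Hyperplasia exceeded dysplasia by 1.53 ± 0.10 on the log2 scale (adjusted p 9e-11). Susd4 differed by 2.399 ± 0.20 (adjusted p 3.5e-09), Acaa1b by 3.18 ± 0.27 (adjusted p 6.48e-09) and Igsf9b by 1.63 ± 0.20 (adjusted p 5.12e-06). Susd4 averaged 0.619 ± 0.164, 4.92 ± 0.561, 0.928 ± 0.242, 0.784 ± 0.194 and 0.645 ± 0.266 CPM over the same 5 stages.

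Of 28 antiviral effectors 19 were higher in hyperplasia than in dysplasia and 0 lower (median difference 1.12). Oas1g averaged 11.1 ± 2.05 CPM in hyperplasia and 4.82 ± 2.42 CPM in dysplasia (difference 1.198 ± 0.24, adjusted p 0.00356). Isg15 averaged 52.4 ± 13.6 CPM in hyperplasia and 16.1 ± 12.8 CPM in dysplasia (1.71 ± 0.34, adjusted p 0.00342). The RNA helicase gene Ddx60, outside that list, averaged 11.7 ± 2.48 CPM in hyperplasia and 4.41 ± 2.25 CPM in dysplasia (1.41 ± 0.25, adjusted p 0.00123). Mean levels of all 3 were higher in hyperplasia, and dysplasia 2 was the highest dysplasia sample for each. For Oas1g dysplasia 2 stood at 9.01 CPM, above hyperplasia 5 at 6.32 CPM. For Isg15 it stood at 43.5 CPM, also above the lowest hyperplasia sample, so these groups overlapped. The interferon-induced apolipoprotein L gene Apol9a, which shares sequence with Apol9b, differed by 1.900 ± 0.34 (adjusted p 0.00142). Of 20 MHC class I genes 7 were higher in hyperplasia than in dysplasia and 1 lower, of 12 regulatory T cell genes 4 were higher and of 16 checkpoint genes 3. Tnfrsf18 differed by 1.06 ± 0.18 (adjusted p 0.000483), Cd80 by 1.15 ± 0.23 (adjusted p 0.00285) and Lgals9 by 1.05 ± 0.16 (adjusted p 0.000246).

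Some damage response genes were also higher in hyperplasia than in dysplasia. Of 22 p53 arrest targets 9 were higher in hyperplasia than in dysplasia, and of 25 recombination and Fanconi genes 4. Cdkn1a, not called against normal tissue, averaged 411 ± 65.3 CPM in hyperplasia and 301 ± 43.3 CPM in dysplasia (0.45 ± 0.11, adjusted p 0.0123). Polk differed by 0.65 ± 0.10 (adjusted p 0.000162) and Trp53inp1 by 0.98 ± 0.13 (adjusted p 2.36e-05). Actn3, the alpha-actinin of fast muscle, was higher in hyperplasia, at 169 ± 83.8 CPM against 49.8 ± 32.2 CPM in dysplasia (1.76 ± 0.36, adjusted p 0.00387), as were 3 of 29 muscle contractile genes in all.

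Lower in hyperplasia than in dysplasia were 10 of 28 cholesterol and fatty acid synthesis genes, 7 of 28 genes of the interleukin-1, interleukin-17 and interleukin-36 axis and 7 of 20 heat shock genes and chaperones. Krt1 averaged 41.4 ± 28.4 CPM in hyperplasia and 191 ± 112 CPM in dysplasia (-2.21 ± 0.43, adjusted p 0.00268). Defb3, an inducible defensin, averaged 21.4 ± 24.4 CPM in hyperplasia and 123 ± 45.7 CPM in dysplasia (-2.53 ± 0.52, adjusted p 0.00489). Zc3h12a differed by -1.23 ± 0.22 (adjusted p 0.00136) and Nfkbiz by -0.94 ± 0.21 (adjusted p 0.00722). Krt1, Zc3h12a and Nfkbiz, which were above normal tissue in hyperplasia, were thus higher still in dysplasia. Duox2 averaged 28.1 ± 20.8 CPM in normal tissue, 2.03 ± 0.413 CPM in hyperplasia and 10.5 ± 19.7 CPM in dysplasia; the difference from dysplasia was -2.36 ± 0.60 (adjusted p 0.0215), but it rested on dysplasia 5, at 55.1 CPM. The other 6 dysplasia samples lay at 2.6 to 3.71 CPM, and without dysplasia 5 the adjusted p was 0.266.

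**Figure D5:**
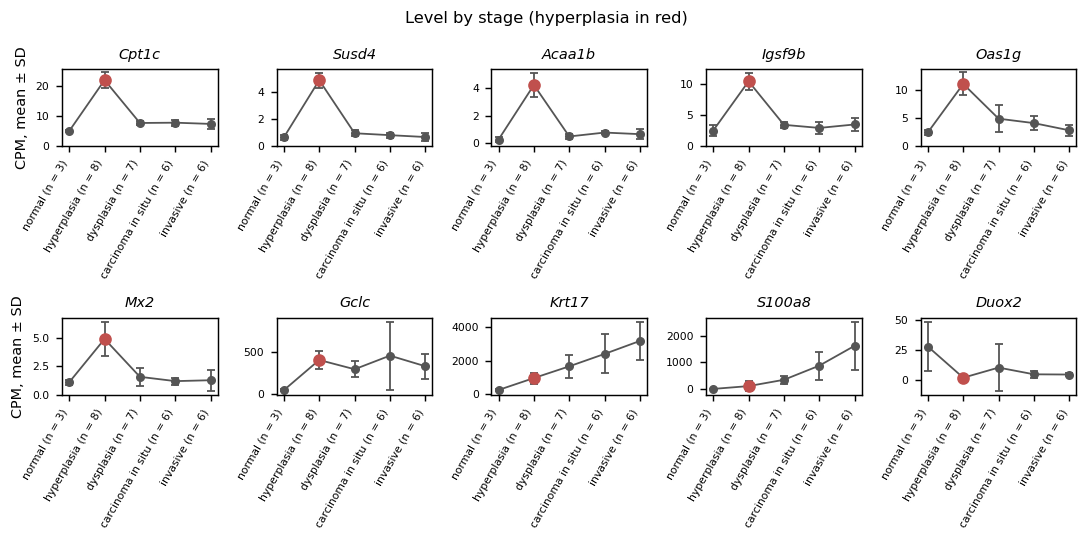
Mean CPM ± SD (vertical axes) of 10 genes in the 5 stages from normal tissue to invasive carcinoma (horizontal axes, number of samples in brackets), with hyperplasia in red. Cpt1c, Susd4, Acaa1b, Igsf9b, Oas1g and Mx2 have their highest mean in hyperplasia, Duox2 its lowest, and Krt17 and S100a8 a higher mean at each later stage.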

How the data were processed

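Poly(A) RNA was sequenced with a stranded TruSeq kit, per the labels' protocols. The authors deposited raw read counts per gene for 30 samples. Per the submitters' processing notes, cutadapt 2.4, STAR 2.7.2a and GRCm38 were used; the counting tool, annotation and strand setting are not given in the sources used here. Genes were tested with edgeR 4.0.16 (quasi-likelihood, robust, TMM factors of 0.892 to 1.06, filterByExpr) in R 4.3.3, in 1 fit of all 30 samples with a mean per stage and Benjamini-Hochberg adjustment at 0.05. The fit was also run on simulated counts in which each gene was drawn independently. That run does not show how the fit performs on these data, and its outcome is not given here. Gene symbols and 78 gene lists were matched to GENCODE annotation, and promoter windows and miRNA sequences came from RefSeq. Members and lists were chosen with earlier results of these data known. Genes were named by size of change (15 each way at 10 CPM or more), by smallest adjusted p (10 each way) and by list (up to 6 members; all members of short lists and of the checkpoint, regulatory T cell, driver, interferon ligand and chemokine lists could be named). Against dysplasia the 10 largest changes each way among called genes at 10 CPM or more were eligible. Some genes named against normal tissue were also given against dysplasia. Among long noncoding RNAs at 1 CPM or more, the 5 smallest adjusted p each way were eligible. Predicted genes, pseudogenes and receptor segments were left out. The share of mitochondrial counts was tested by exact permutation (scipy 1.17.1). Alternatives were DESeq2 1.42.0, its size factors, limma 3.58.1 voom, no filter, 2 groups only, a muscle score as covariate, a replicate block and each library left out. Some items are not reported here.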

Additional observations from a re-analysis of the deposited data

Results flagged for a closer look

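For each of 220 measures the 8 hyperplasia samples were examined for a sample whose gap to its nearest neighbour, divided by the range of the group, exceeded Dixon's 95% critical value. For independent, normally distributed measures chance gives about 1 in 20. Neither property was tested here, so that rate is only a rough guide. Dixon's value was exceeded for 27 measures. Hyperplasia 5 was the lowest sample for 9 of them, all genes of the interferon response or antigen loading: Irf9 at 42.4 CPM (others 55.9 to 66.1), Stat2 at 29.4 CPM (49.5 to 60.9), Irf7 at 17.7 CPM (33.2 to 41.3), Usp18 at 8 CPM (15 to 21.2), Ifih1 at 20.8 CPM (29.2 to 34.4), Dhx58 at 8.73 CPM (16.3 to 21.6), Oas1g at 6.32 CPM (10.5 to 13.2), Oas1a at 14.2 CPM (27.5 to 34.8) and Tapbp at 66.8 CPM (87.2 to 98.6). The same sample was the highest for S100a8 at 553 CPM (others 5.54 to 155), Klk6 at 20.5 CPM (0.644 to 8.67), Sprr2i at 335 CPM (21.5 to 152) and Il1rl1 at 6.94 CPM (2.01 to 4.32).

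Hyperplasia 1 was the highest for Tlr9 at 2.41 CPM (others 0.811 to 1.56), Cx3cr1 at 4.55 CPM (2.4 to 3.32), Fcgr1 at 3.44 CPM (0.987 to 1.96) and Cd163 at 20.2 CPM (11.2 to 15.3). Hyperplasia 4 was the highest for Idi2 at 199 CPM (21.6 to 77), Cdkn1b at 61.1 CPM (50.8 to 53.7) and Serpinb13 at 4.72 CPM (1.82 to 2.61). Hyperplasia 8 was the highest for Crisp3 at 2.65 CPM (0.0792 to 0.301) and Krt7 at 13 CPM (1.31 to 5.08), and the lowest for Top2a at 89.2 CPM (114 to 135). Hyperplasia 2 was the lowest for Tnfrsf18 at 3.54 CPM (4.48 to 5.28) and the highest for Igha at 0.817 CPM (0.224 to 0.452). Hyperplasia 6 was the highest for Cd3e at 1.57 CPM (0.504 to 0.95), and hyperplasia 7 for Gtse1 at 15.9 CPM (10.6 to 13).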

How the results depend on the processing

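Against normal tissue, 2519 genes were called (1449 higher, 1070 lower). DESeq2 called 1462 higher and 1581 lower, its size factors 1305 and 1413, the 2 groups alone 1758 and 1471, limma-voom 1160 and 937, no expression filter 948 and 877, and the muscle covariate 1016 and 559 (1575 in all). With each library left out, totals ran from 896 to 2878, genes higher from 443 to 1376 and genes lower from 453 to 1502. Against dysplasia, 914 genes were called (387 higher, 527 lower). DESeq2 called 571 and 778 (1349), the 2 groups alone 932 and 1040 (1972), no filter 241 and 232 (473), and the muscle covariate 281 and 240 (521); with each library left out, totals ran from 509 to 1414, genes higher from 231 to 606 and genes lower from 273 to 808. The cause was not tested. Sample numbers 1 to 3 recur in both stages but mark no stated pairing, and deviations of same-numbered samples correlated at −0.349, 0.348 and 0.0153. With the replicate number as a block, 1181 genes were higher and 955 lower than in normal tissue (2136), and 540 higher and 638 lower than in dysplasia (1178).

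Of 203 named genes called against normal tissue, 191 to 202 kept their call under each of the 7 other settings, 198 to 202 without 1 hyperplasia sample, and 180, 167 and 185 without normal 1, 2 and 3. Under those 7 settings the number called higher ran from 2 to 13 for the interferon-gamma GTPases, 2 to 10 for the Sprr2 paralogs, 3 to 18 for mitosis genes, 1 to 4 for translesion synthesis and 3 to 8 for driver genes. The number called lower ran from 1 to 29 for nuclear oxidative phosphorylation, 5 to 19 for the tricarboxylic acid cycle list, 3 to 8 for contractile genes and 1 to 9 for erythrocyte genes. Igha ran from −4.96 to 0.61 with each library left out, reversed without normal 1. Of 38 genes named against dysplasia, 31 to 38 kept their call. The difference in mitochondrial share was −3.05 to −1.4 with each library left out, −3.12 over nuclear coding counts. The number of normal samples, 3, limits each comparison with them.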

Other observations

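Some homeobox genes had reads in the lesions and almost none in normal tissue; they were chosen after their values were seen. Hoxb9, a posterior homeobox gene, had 195 reads over the 8 hyperplasia samples and 1 over the 3 normal samples (adjusted p 0.000771). Its neighbours on the plus strand of chromosome 11 (GRCm38) differed in the same way. Gm53, at chr11:96251105-96264868, had 554 reads in hyperplasia and 5 in normal tissue (adjusted p 6.18e-05). Mir196a-1, at chr11:96265164-96265265, had 101 in hyperplasia and 0 in normal tissue (adjusted p 3.5e-05). Hoxb9 lies next, at chr11:96271457-96276595. All 8 lesions exceeded all normal samples for the 3 genes, and no other tested Hox gene was called. Reads at the hairpin come from a library of poly(A) RNA and do not measure the mature miRNA, whose 2 arms in RefSeq are, with bases 2 to 8 in capitals:
miR-196a-5p: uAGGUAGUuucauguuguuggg
miR-196a-1-3p: cAACGACAucaaaccaccugau

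Nkx2-9, another homeobox gene, was at 1.37, 2.19 and 3.19 CPM in hyperplasia and 0, 0.0563 and 0 CPM in normal tissue, where 1 read was counted in all (adjusted p 2.54e-06). It was also higher in hyperplasia than in dysplasia, at 2.16 ± 0.562 CPM against 0.248 ± 0.147 CPM (difference 3.09 ± 0.36, adjusted p 2.05e-06). No lesion sample overlapped with normal tissue.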
